A study of Mus musculus with 3 samples.

Results

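The genes of oxidative phosphorylation were described in 3 single-cell RNA-seq libraries of CD8+ T cells from mouse melanoma. Members were the genes whose symbol starts with Ndufa, Ndufb, Ndufc, Ndufs, Ndufv, Uqcr, Cox4, Cox5, Cox6, Cox7, Cox8, Atp5 or mt-, and Sdha, Sdhb, Sdhc and Sdhd. They also needed at least 10 CPM (the gene's UMIs scaled by all UMIs of a library's kept cells, a UMI being a tag that marks 1 captured RNA molecule) in the mean of the 3 libraries. Of 33696 genes, 110 had such a symbol and 99 of those reached the minimum, 86 encoded in the nucleus and 13 in the mitochondrial genome (the mt- genes). In all, 7370 genes reached the minimum, and these are the background called "all genes" here.

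The cells were pmel T cells, which carry a transgenic T cell receptor for the melanoma peptide gp100 and the Thy1.1 marker. They were cultured with gp100 and 1 of 3 cytokine conditions, transferred into irradiated C57BL/6 mice (bought at a few weeks of age) bearing B16F10 melanoma, and sorted from the tumors as live Thy1.1+CD8+ cells on day 18 after tumor injection. The conditions were sIL-2 (super IL-2), IL-2/21-Trikine (an engineered cytokine that brings the IL-21 receptor chain to the beta and gamma chains of the IL-2 receptor) and sIL-2 + IL-21, called the sIL-2, Trikine and combination libraries below. By the methods, recipients of cells from the sIL-2 and combination cultures were both injected with sIL-2 alone and recipients of cells from the Trikine culture with Trikine, so the combination differed from sIL-2 in the culture and not in the injections. All hosts were irradiated and all received the low dose regimen. There was 1 library per group from 1 experiment, and the number of mice pooled into a library was not found in the study's text. No test between groups was therefore possible, and the 95% intervals below cover counting error only, not the spread between cells or between mice.

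Oxidative phosphorylation moves electrons from NADH and succinate through complexes I to IV of the inner mitochondrial membrane to oxygen, and the proton gradient this builds drives ATP synthase, or complex V. Most subunits are encoded in the nucleus and imported, whereas the mitochondrial genome encodes 13 of the catalytic membrane subunits, so a complete chain needs both genomes. Dividing T cells add mitochondria as they grow, and memory and stem-like CD8+ T cells are known for relying on respiration where effector cells lean on glycolysis.

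The kept cells numbered 7760 (sIL-2), 13299 (Trikine) and 9798 (combination), with 130200802 to 168041089 UMIs a library and a median of 10254 to 14056 UMIs a cell. Cells under 2000 UMIs made up 13.3% of the Trikine library against 3.43% and 3.71% of the others. Between 18 and 41 cell barcodes were shared by any pair of libraries, at most 0.418% of a library. All 7 T cell identity genes reached 10 CPM in each library. The summed myeloid list (12 of 12 genes detected) stood at 214 CPM with sIL-2, 89.0 with Trikine and 210 with the combination, of which Fcer1g, a gene that innate-like T cells can also express, gave 176, 56.1 and 189 CPM. After Fcer1g the highest of that list were Cxcl2 (11.5, 7.54 and 4.87 CPM), Cd68 (9.90, 5.39 and 8.21 CPM) and Il1b (6.08, 8.11 and 3.01 CPM). The macrophage genes C1qa, Csf1r and Adgre1 stayed at or under 0.606 CPM. The summed melanoma list ran from 7.90 to 15.8 CPM, and the summed erythroid list was 68.9 CPM with sIL-2 and at most 0.530 CPM elsewhere. Cells with 2 or more myeloid or melanoma markers were 13.1%, 4.72% and 13.4% of kept cells.

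Promoters of respiratory chain genes are known for binding sites of NRF1, of ETS factors such as GABP, and of YY1, and 3 short motifs were searched on both strands of the RefSeq windows from 250 bases before to 50 bases after each start (GRCm38.p6). The motifs were CCGGAAG for ETS factors, GCATGCGC for NRF1 and AAGATGGC for YY1. Windows were found for 73 of the 86 nuclear-encoded members. The ETS motif was in 26.0% of them, against 24.8% of the windows of all genes at 10 CPM and 9.93% of all 27025 genes with a window. The NRF1 motif was in 16.4%, against 7.07% and 3.05%, and the YY1 motif in 15.1%, against 6.63% and 3.19%. The 100 bases before the start are printed for the 3 members with the largest and the 3 with the smallest ratio of the combination over sIL-2 among those with a single listed start and a motif in that stretch, so that promoters of members at both ends can be compared. Capitals mark ETS or NRF1 motifs on either strand.
Atp5k (high end, chr5:108434400-108434499, minus strand): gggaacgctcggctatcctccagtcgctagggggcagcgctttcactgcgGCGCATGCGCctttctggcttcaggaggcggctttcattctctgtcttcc
Uqcr11 (high end, chr10:80406822-80406921, minus strand): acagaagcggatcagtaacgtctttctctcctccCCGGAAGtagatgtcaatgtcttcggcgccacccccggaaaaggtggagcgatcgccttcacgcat
Ndufa11 (high end, chr17:56717662-56717761, plus strand): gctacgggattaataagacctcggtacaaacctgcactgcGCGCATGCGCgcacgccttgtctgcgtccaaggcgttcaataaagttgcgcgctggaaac
Uqcrh (low end, chr4:116075071-116075170, minus strand): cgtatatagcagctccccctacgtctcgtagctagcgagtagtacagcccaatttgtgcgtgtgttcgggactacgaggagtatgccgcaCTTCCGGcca
Ndufa6 (low end, chr15:82354292-82354391, minus strand): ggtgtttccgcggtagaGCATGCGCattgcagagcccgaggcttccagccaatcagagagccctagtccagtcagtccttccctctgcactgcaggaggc
Ndufs3 (low end, chr2:90904722-90904821, minus strand): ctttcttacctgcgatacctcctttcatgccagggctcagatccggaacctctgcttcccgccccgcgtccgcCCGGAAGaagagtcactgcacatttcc
Each printed stretch was chosen for holding a motif, so the presence of motifs at both ends was fixed by that choice. In Atp5k and Ndufa11 the NRF1 motif overlapped its own reverse complement, so that it was read on both strands. Among the 73 members, the 35 with any of the 3 motifs had a median log2 ratio of 0.27 for the combination over sIL-2, and the 38 with none had 0.31. The 11 members with the YY1 motif had 0.35 and the 62 without it had 0.24. The other 2 motifs went the other way. The 19 members with the ETS motif had 0.27 and the 54 without it 0.31, and the 12 with the NRF1 motif had 0.24 and the 61 without it 0.30.

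The nuclear-encoded members were lowest with sIL-2, higher with Trikine and highest with the combination. Their summed level was 17069 CPM with sIL-2, 19419 CPM with Trikine and 20747 CPM with the combination. That is 1.71%, 1.94% and 2.07% of all UMIs. The log2 ratio of Trikine over sIL-2 was 0.19 (95% counting interval 0.18 to 0.19), that of the combination over sIL-2 was 0.28 (0.28 to 0.28), and that of Trikine over the combination was -0.10 (-0.10 to -0.09). The 13 mt- genes summed to 13532, 14197 and 14253 CPM in the same order of libraries, log2 ratios of 0.07, 0.07 and -0.01 for these 3 pairs, so the UMIs of nuclear-encoded members over those of mt- genes were 1.26, 1.37 and 1.46. Over summed UMIs the ratios to sIL-2 were thus larger for the nuclear-encoded than for the mt- genes. With each cell weighted equally this did not hold for Trikine, with 0.304 for the mt- genes and 0.156 for the nuclear-encoded members, while the combination gave 0.242 and 0.282. Thinning each cell to 2000 UMIs also weights cells equally but leaves out those under 2000 UMIs. It gave 0.055 and 0.207 for Trikine and 0.13 and 0.286 for the combination. The part of the shallow cells was not tested.

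A member was counted as higher or lower in a pair of libraries at a log2 ratio of at least 0.25 in size, a fold of 1.19. Of the 86 nuclear-encoded members, 33 were higher and 0 lower with Trikine than with sIL-2, where 11.2% of all genes were higher and 23.0% lower. Their median log2 ratio was 0.19 and that of all genes -0.08. With the combination over sIL-2, 48 were higher and 0 lower, against 16.1% and 28.9% of all genes, with a median of 0.27 against -0.07. Both these comparisons share the sIL-2 library. With Trikine over the combination, 1 member was higher and 5 were lower, a share no larger than the 11.9% and 11.0% of all genes, although the median was -0.11 against 0.00. With the size factors of edgeR's TMM method in place of library totals, 50 and 65 members were higher than with sIL-2 and 0 lower, where 19.5% and 24.5% of all genes were higher and 12.7% and 19.1% lower.

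The order of the 3 libraries was shared by most members. The sIL-2 library held the lowest value for 71 of the 86 nuclear-encoded members, against 29.6% of all genes. For 59 of them sIL-2 was lowest and the combination highest, against 19.5% of all genes. Ratios by complex are shown next to those of the mt- genes, and the plot marks the median of all genes as a dotted line.

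**Figure D1:**
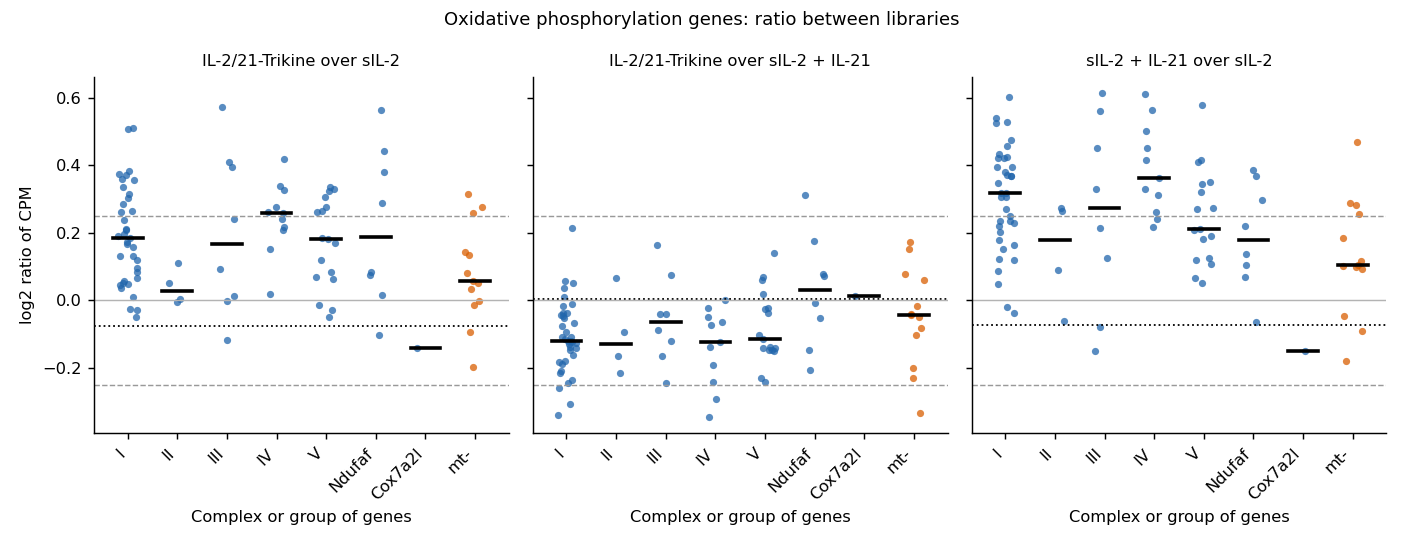
Log2 ratio of CPM between 2 libraries (vertical axis) for every member, by complex I to V, Ndufaf assembly factors, Cox7a2l and mt- genes (horizontal axis), 1 panel per pair; black bars are medians, dashed lines are at 0.25 and -0.25, and the dotted line is the median of all genes. In both panels against sIL-2 most blue points (nuclear-encoded) lie above 0 and reach 0.57 and 0.61, while Cox7a2l lies at -0.14 and -0.15.

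Complex I takes electrons from NADH. Its 37 nuclear-encoded subunits summed to 4599 CPM with sIL-2, 5244 CPM with Trikine and 5693 CPM with the combination. Against sIL-2, 13 were higher with Trikine and 22 with the combination, and 0 were lower in either. Of all genes, 11.2% and 16.1% were higher and 23.0% and 28.9% lower in these pairs. Ndufc1, a small membrane subunit, stood at 102 CPM with sIL-2, 146 CPM with Trikine and 155 CPM with the combination. The sIL-2 library was thus the low one and the others lay close together, with log2 ratios over sIL-2 of 0.51 (0.48 to 0.54) and 0.60 (0.57 to 0.63). Ndufa5, an accessory subunit of the matrix arm, showed the same arrangement at 58.5, 83.2 and 84.2 CPM. Ndufc2, with the highest mean CPM of these 37, stood at 245, 302 and 328 CPM.

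Other accessory subunits were highest with the combination alone. Ndufb9 was 147 CPM with sIL-2 and 153 CPM with Trikine, and 193 CPM with the combination, a log2 ratio of Trikine over the combination of -0.34 (-0.36 to -0.32). Ndufv3, which sits beside the NADH-binding subunits, followed at 130, 146 and 181 CPM, a ratio of -0.31. Ndufb10 was the only other nuclear-encoded complex I subunit counted as lower in that pair, at 135, 139 and 166 CPM. Ndufb4 went the other way at 11.3, 14.6 and 12.6 CPM, with a ratio of 0.21 (0.13 to 0.30), under the size that counts. Ndufb4 has a near-identical copy, Ndufb4b, at 1.27, 1.65 and 1.59 CPM, and reads that map to both may be missing from either.

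Among nuclear-encoded subunits, the 7 conserved core subunits of complex I differed less in sum than the 30 supernumerary ones. Their summed CPM gave log2 ratios over sIL-2 of 0.10 (0.08 to 0.11) and 0.20 (0.19 to 0.22), against 0.20 (0.19 to 0.20) and 0.32 (0.31 to 0.32) for the supernumerary subunits. The other 7 core subunits are mt- genes, whose sum gave 0.23 (0.23 to 0.24) and 0.15 (0.15 to 0.16). The split by role was chosen after the members' values were seen, so it is a description. Ndufs1, the largest iron-sulfur subunit, was level at 37.1, 35.9 and 36.2 CPM. Ndufs3, another core subunit, was level as well at 76.7, 75.2 and 79.3 CPM. Ndufv1, which binds NADH, was higher with the combination than with sIL-2 at 37.1, 42.2 and 49.8 CPM, a log2 ratio of 0.42, and Ndufs7, an iron-sulfur subunit, was counted as higher in both pairs at 69.9, 83.9 and 86.4 CPM.

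The Ndufaf genes encode assembly factors that help build complex I and leave it afterwards. Ndufaf6 stood at 15.0 CPM with sIL-2, 22.2 with Trikine and 19.6 with the combination, the second-largest ratio over sIL-2 of any member with Trikine, at 0.56 (0.48 to 0.64). Ndufaf4 was the 1 nuclear-encoded member counted as higher with Trikine than with the combination, at 61.0, 79.5 and 64.0 CPM and a ratio of 0.31 (0.28 to 0.35). Ndufaf2, a factor of the late assembly steps, gave 20.9, 28.3 and 26.9 CPM. In Ndufaf6, Ndufaf4 and Ndufaf2 Trikine was thus the highest library, unlike in most subunits. Ndufaf8, Ndufaf7 and Ndufaf1 were highest with the combination, at 59.0, 23.9 and 12.3 CPM against 58.7, 23.1 and 11.1 CPM with Trikine. For Ndufaf8 and Ndufaf7 the interval between these libraries included 0. Ndufaf3 was lower with Trikine at 24.4, 22.8 and 26.3 CPM. Ndufaf5 and Ndufaf1 lay just inside the minimum with means of 10.6 and 11.3 CPM.

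Complex II, succinate dehydrogenase, also works in the citric acid cycle and is wholly nuclear-encoded. Its 4 subunits gave the smallest ratios of any complex for Trikine over sIL-2, 0.05 in their sum (0.03 to 0.07), and 0.17 (0.15 to 0.19) for the combination over sIL-2. Sdha, the flavoprotein, was level at 53.7, 53.9 and 51.5 CPM. Sdhb, the iron-sulfur subunit, was 98.9, 107 and 120 CPM, and Sdhc, a membrane anchor, 66.0, 68.3 and 79.2 CPM. Sdhd, the other anchor, was 76.2, 75.9 and 81.1 CPM. Sdhb and Sdhc were the 2 subunits counted as higher with the combination than with sIL-2, where 16.1% of all genes were higher.

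Complex III passes electrons from ubiquinol to cytochrome c. Uqcr10, a small subunit, had the largest ratio over sIL-2 of all members in both pairs. It stood at 162 CPM with sIL-2, 242 CPM with Trikine and 249 CPM with the combination, log2 ratios of 0.57 (0.55 to 0.60) and 0.61 (0.59 to 0.64). In the first pair its interval lay inside that of Ndufaf6, at 0.56 (0.48 to 0.64). In the second pair its interval overlapped those of Ndufa4 and Ndufc1, at 0.61 and 0.60. The neighboring small subunits Uqcrq (207, 274 and 282 CPM) and Uqcr11 (111, 146 and 164 CPM) were ordered alike. Uqcrc1, a core protein, was ordered alike with smaller ratios, at 56.5, 60.2 and 65.6 CPM. Uqcrc2, the other core protein, was 146, 145 and 138 CPM. Uqcrfs1, the Rieske iron-sulfur protein, was lowest with Trikine at 163, 150 and 178 CPM. Uqcrh, the hinge protein that contacts cytochrome c1, was level with sIL-2 and Trikine and lowest with the combination, at 516, 520 and 464 CPM. Its ratio for the combination over sIL-2 was -0.15 (-0.17 to -0.14), opposite in sign to most members.

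**Figure D2:**
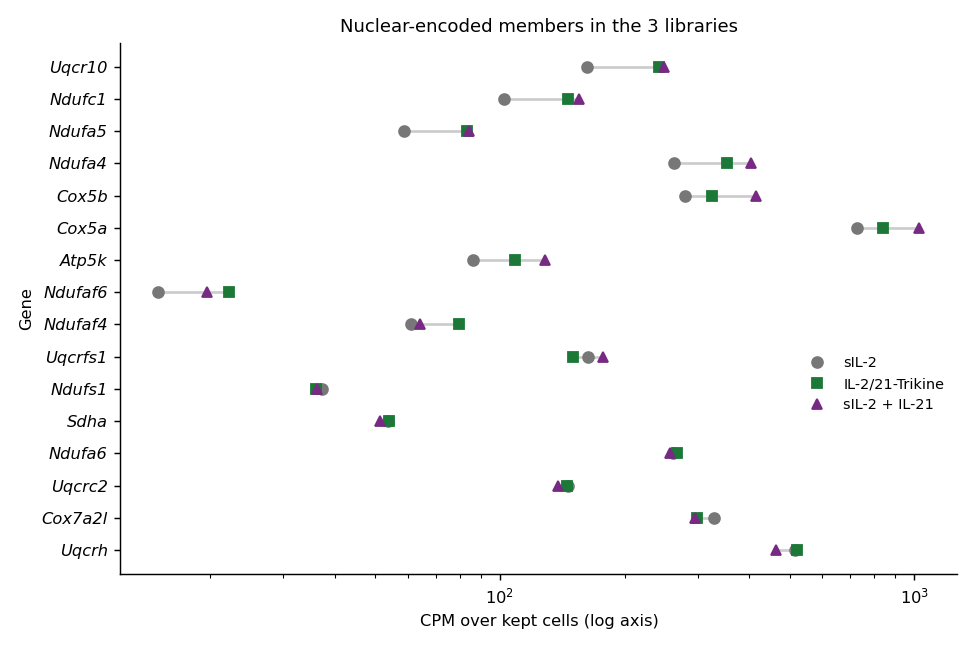
CPM over kept cells (horizontal log axis) of 16 nuclear-encoded members (vertical axis) in the 3 libraries; each point is 1 library, and grey lines join the lowest and highest. The sIL-2 circle is lowest for Uqcr10 down to Ndufaf4, whereas Ndufs1, Sdha and Ndufa6 differ little and Cox7a2l (329 CPM) is highest with sIL-2; Ndufs1 and Ndufa6 were added after their values were seen.

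Complex IV, cytochrome c oxidase, reduces oxygen, and its 11 nuclear-encoded members gave the largest ratio of any complex. They summed to 4862, 5730 and 6301 CPM, log2 ratios over sIL-2 of 0.24 (0.23 to 0.24) with Trikine and 0.37 (0.37 to 0.38) with the combination. All 11 had a ratio above 0 over sIL-2 in both pairs, and 6 and 9 were counted as higher, against 11.2% and 16.1% of all genes. Ndufa4, which despite its name associates with complex IV, stood at 264, 352 and 403 CPM. Cox5a, a matrix-side subunit with the highest mean CPM of these 11, gave 725, 839 and 1028 CPM. Cox5b, its partner on that side, gave 280, 326 and 414 CPM and had the lowest ratio of all members for Trikine over the combination, -0.35 (-0.36 to -0.33). That interval overlapped those of Ndufb9 and mt-Nd3, at -0.34 and -0.33. Among these 11, Cox5a followed at -0.29, so these 2 subunits separated the combination from both other libraries. Cox4i1 was likewise at 581 and 588 CPM with sIL-2 and Trikine and at 696 CPM with the combination.

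Several complex IV subunits have paralogs that are known from muscle, lung or testis. In these cells the ubiquitous form carried nearly all UMIs. Cox6a1 stood at 206, 250 and 275 CPM and Cox6a2 at 0.0691, 0.180 and 0.119 CPM, and Cox7a2 at 316, 396 and 432 CPM with Cox7a1 at 0.768, 0.690 and 1.55 CPM. Cox4i2, an isoform known from lung and low oxygen, did not pass 0.230 CPM, and Ndufa4l2, known as a target of the hypoxia factor HIF-1, did not pass 0.0154 CPM. Cox8a was 641, 811 and 823 CPM, while Cox8b and Cox8c had at most 0.00768 CPM. Cox6b1 was 413, 459 and 480 CPM. Cox6b2, known from testis, was the nearest gene under the minimum at 3.59, 2.83 and 5.20 CPM, a mean of 3.87 CPM. Cox5b-ps, a pseudogene of Cox5b that can share its reads, came next at 2.20, 3.47 and 4.19 CPM. Ndufb11b and Cox7b2 had 0 UMIs in every library, which allows up to 0.0230 CPM with sIL-2 and 0.0180 and 0.0179 CPM in the others.

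Cox7a2l is not a standard subunit but is known for a role in joining complexes III and IV into supercomplexes, which was not measured here. It was highest with sIL-2, unlike the 11 nuclear-encoded subunits of complex IV, at 329 CPM against 298 and 296 CPM. Its log2 ratios over sIL-2 were -0.14 (-0.16 to -0.12) and -0.15 (-0.17 to -0.13). This is small in size and under the size that counts, but opposite in sign to Cox7a2, the related subunit of complex IV, at 0.33 and 0.45.

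Complex V, the ATP synthase, uses the proton gradient to make ATP. The 5 subunits of the F1 head and central stalk differed little in sum, with log2 ratios over sIL-2 of 0.09 (0.08 to 0.10) and 0.15 (0.14 to 0.16). The catalytic subunit Atp5b was 356, 372 and 412 CPM and its partner Atp5a1 272, 269 and 297 CPM. Atp5e was the 1 of these 5 counted as higher with Trikine than with sIL-2, at 432, 540 and 490 CPM and a ratio of 0.32 (0.31 to 0.34). The small membrane subunits differed more, at 0.28 (0.27 to 0.29) and 0.39 (0.38 to 0.40). All 5 of them were counted as higher with Trikine than with sIL-2, against 11.2% of all genes. Atp5k, the e subunit that helps pair 2 synthases, stood at 86.0, 109 and 128 CPM, a ratio of 0.58 (0.55 to 0.61) for the combination over sIL-2. Atp5l, the g subunit, stood at 563, 676 and 748 CPM. As in the nuclear-encoded parts of complexes I and III, these small subunits had larger ratios in sum than the core ones. Other parts of complex V outside F1 were nearer to it. The 4 peripheral stalk subunits gave 0.13 (0.12 to 0.14) and 0.24 (0.23 to 0.25), with 0 counted as higher with Trikine. The 3 c-ring genes gave 0.15 (0.14 to 0.16) and 0.14 (0.13 to 0.15).

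The c-ring is built from 1 mature protein encoded by 3 genes, written in the files as Atp5g1, Atp5g2 and Atp5g3 (Atp5mc1, Atp5mc2 and Atp5mc3 in current naming). Atp5g1, the copy known to vary most with growth, stood at 224, 281 and 270 CPM, log2 ratios over sIL-2 of 0.33 (0.31 to 0.35) and 0.27 (0.25 to 0.29). Atp5g2 was nearly level at 643, 675 and 666 CPM, and Atp5g3 lay between at 331, 376 and 382 CPM. The 3 genes have pseudogene copies, which could divert reads.

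Across complexes I, III and V and together with the 4 of complex II, the 19 nuclear-encoded catalytic or core subunits had median log2 ratios over sIL-2 of 0.00 and 0.18. The medians of all genes in these pairs were -0.08 and -0.07. Of these 19, 2 and 4 were counted as higher, or 10.5% and 21.1%, near the 11.2% and 16.1% of all genes. None was lower in either pair, where 23.0% and 28.9% of all genes were. The 30 supernumerary subunits of complex I had medians of 0.20 and 0.36, the 5 small subunits of complex III 0.40 and 0.45, and the 5 small membrane subunits of complex V 0.28 and 0.41. Cyc1, the cytochrome of complex III, is not among the 19 because the symbol rule leaves it out, and had 0.22 and 0.24. This split was also made with the values known. Gene span, described below, was not held equal between the core and small subunits, and its part in the split was not tested.

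Over summed UMIs the mt- genes did not all differ in 1 direction. The sIL-2 library held the lowest value for 9 of 13, where it did so for 29.6% of all genes. mt-Nd1, a proton-pumping core subunit of complex I, stood at 1529 CPM with sIL-2, 1852 CPM with Trikine and 1642 CPM with the combination. mt-Nd2 was 451, 539 and 485 CPM and mt-Nd4 978, 1216 and 1167 CPM. These 3 were the mt- genes counted as higher with Trikine than with sIL-2, at 0.28, 0.26 and 0.31, and 0 were lower. The 3 are 23.1% of the mt- genes, where 11.2% of all genes were higher and 23.0% lower. mt-Co1, the catalytic subunit of complex IV, was highest with sIL-2 at 3350 CPM against 3138 and 3247 CPM. mt-Co2, which takes electrons from cytochrome c, was 2156, 2136 and 2025 CPM. The log2 ratios of mt-Co1 over sIL-2 were -0.09 (-0.10 to -0.09) and -0.05 (-0.05 to -0.04), opposite in sign to summed nuclear-encoded complex IV, but with TMM size factors both were above 0. mt-Co3, of the same enzyme, was higher than with sIL-2, at 0.08 and 0.28.

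**Figure D3:**
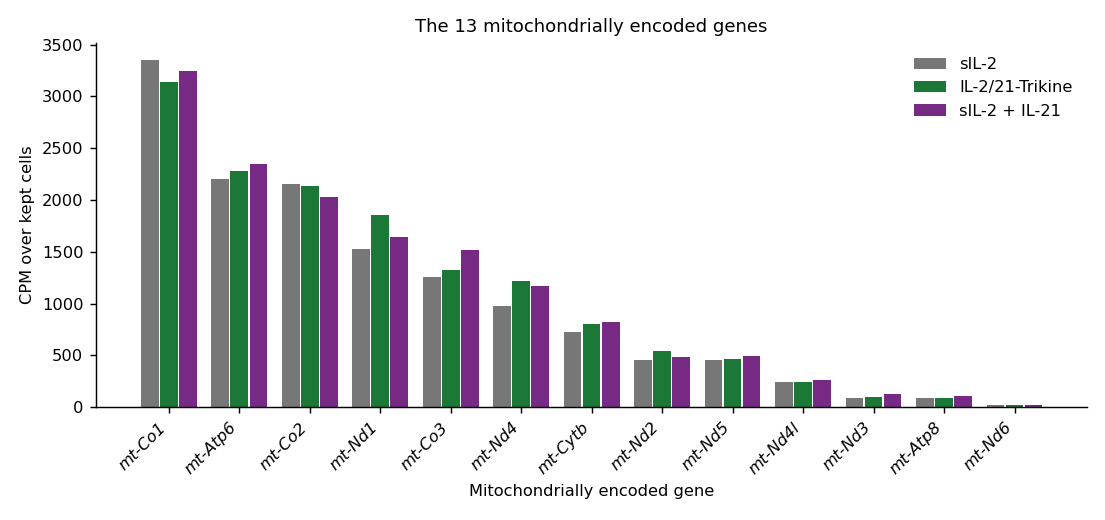
CPM over kept cells (vertical axis) of the 13 mitochondrially encoded genes (horizontal axis), 1 bar per library. mt-Nd1 and mt-Nd4 are lowest with sIL-2, mt-Co3 is highest with the combination (1521 CPM), and mt-Co1 is highest with sIL-2 (3350 CPM).

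A group of mt- genes was highest with the combination. mt-Co3, the third core subunit of complex IV, was 1251 and 1325 CPM with sIL-2 and Trikine and 1521 CPM with the combination. mt-Nd3 was 89.8, 98.5 and 124 CPM, the 1 mt- gene counted as lower with Trikine than with the combination, at -0.33 (-0.36 to -0.30). mt-Atp8 was 86.5, 90.0 and 106 CPM, while mt-Atp6, encoded on a shared transcript with it, was 2198, 2279 and 2343 CPM. Genes on a shared transcript were counted separately, and how its reads divide between them was not tested. mt-Cytb, the cytochrome of complex III, was 723, 798 and 823 CPM. Over sIL-2, 4 mt- genes were counted as higher with the combination (mt-Nd3, mt-Nd4, mt-Co3 and mt-Atp8) and 0 as lower. The 4 are 30.8% of the mt- genes, where 16.1% of all genes were higher and 28.9% lower.

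The remaining mt- genes differed little. mt-Nd5 was 455, 466 and 493 CPM and mt-Nd4l, whose reading frame overlaps that of mt-Nd4, was 243, 242 and 260 CPM. Over sIL-2, mt-Nd4 was counted as higher in both pairs and mt-Nd4l in neither. How reads divide between these neighboring genes was not tested. mt-Nd6 is the only mt- member encoded on the light strand and had the fewest UMIs. It was 21.5 CPM with sIL-2 against 18.8 and 19.0 CPM, the lowest log2 ratios over sIL-2 of any member, -0.20 (-0.27 to -0.12) and -0.18 (-0.25 to -0.11). Both intervals overlapped those of Cox7a2l, at -0.14 and -0.15.

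Other mitochondrial gene groups were read against the same background. Of 77 mitochondrial ribosomal proteins, which translate the mt- messages, 35 were higher with Trikine and 54 with the combination than with sIL-2, where 11.2% and 16.1% of all genes were higher, and 0 were lower, where 23.0% and 28.9% of all genes were. Their medians were 0.23 and 0.30, close to those of the nuclear-encoded members. Mrpl23 had the largest ratio over sIL-2 with Trikine, at 105, 152 and 143 CPM, and Mrpl20 that with the combination, at 175, 210 and 257 CPM. The low ends were Mrpl9 (55.5, 48.6 and 52.2 CPM) and Mrpl30 (141, 132 and 128 CPM). Of 27 import genes, 11 and 10 were higher and 0 lower in the same pairs, read against the same shares, with medians of 0.20 and 0.18. Here the chaperonin Hspe1 was highest with Trikine, at 496, 695 and 571 CPM.

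The carbon pathways that feed the chain were read against the same background. Of 17 citric acid cycle genes, 0 were counted as higher or lower with Trikine than with sIL-2, where 11.2% of all genes were higher and 23.0% lower. With the combination 2 were higher, Mdh2 at 293, 324 and 364 CPM and Idh3g at 53.8, 59.3 and 65.7 CPM, a share below the 16.1% of all genes. In that pair 0 were lower, against 28.9% of all genes. The medians over sIL-2 were 0.03 with Trikine and 0.05 with the combination, against -0.08 and -0.07 for all genes. Of 19 glycolysis genes, 14 were lower with Trikine than with sIL-2 and 12 lower than with the combination, and 0 were higher in either pair. Of all genes, 23.0% and 11.0% were lower in these pairs. Slc16a3, a lactate exporter, stood at 25.7, 16.4 and 22.3 CPM, and Aldoc, an aldolase, at 12.8, 8.87 and 15.5 CPM. With the combination over sIL-2, 4 glycolysis genes were higher and 5 lower, near the 16.1% and 28.9% of all genes. The hypoxia response list, which overlaps glycolysis in its known control, summed to 684, 496 and 665 CPM. The glycolysis genes summed to 4889 CPM with sIL-2, 4189 CPM with Trikine and 5354 CPM with the combination. Beside the members' sums, Trikine thus had the least glycolysis transcript per member transcript, although the members themselves were highest with the combination.

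Cytochrome c, the carrier between complexes III and IV, followed Trikine. Cycs was 287, 379 and 320 CPM, log2 ratios of 0.40 over sIL-2 and 0.24 over the combination, and Cyc1, the cytochrome of complex III whose symbol the rule leaves out, was 81.2, 94.4 and 96.2 CPM. Gpd2, which feeds electrons from glycolysis into the chain, was lowest with Trikine at 59.3, 40.2 and 61.1 CPM. Etfb, which brings electrons from fatty acid oxidation, was highest with the combination at 108, 113 and 167 CPM.

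Known regulators of mitochondrial gene expression did not share the members' order. Of 13 such genes, 0 were higher with either condition than with sIL-2, and 3 and 8 were lower. The count of 3 was at the 23.0% of all genes lower with Trikine, and that of 8 was above the 28.9% lower with the combination. The list was not split by whether a gene raises or lowers mitochondrial gene expression. Nrip1 had its lowest ratio for the combination over sIL-2, -0.78, at 124, 94.3 and 71.8 CPM. Nrf1 was 47.2, 44.7 and 40.1 CPM, Gabpa 27.5, 25.4 and 25.3 CPM and Yy1 120, 103 and 109 CPM. These factors, whose motifs were searched, were highest with sIL-2, as were 50.6% of all genes. For Trikine over sIL-2, Nrf1 had a log2 ratio of -0.08 and Gabpa -0.12, near the median of -0.08 of all genes, and Yy1 had -0.22. Myc was 105, 108 and 67.6 CPM, a log2 ratio of -0.63 for the combination over sIL-2. Tfam, which packs mitochondrial DNA and takes part in its transcription, was 35.0, 43.5 and 39.6 CPM.

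Members have short genes, and short genes differed between these libraries as a class. The median gene span was 7.57 kb over the 86 members and 26.2 kb over other genes. Among other genes under 3 kb, the median log2 ratio over sIL-2 was 0.08 with Trikine and 0.14 with the combination, against -0.13 and -0.18 at 25 kb or more. The 13 members under 3 kb had 0.27 and 0.36, and the 8 of at least 25 kb had 0.07 and 0.16. Within their own span class, 75 and 79 of the 86 members lay above the median of the other genes in these pairs, and 30 lay above it for Trikine over the combination. Malat1, an RNA held in the nucleus, was 4301, 3517 and 2407 CPM, the reverse order of the members. Kcnq1ot1 (63.1, 63.9 and 52.9 CPM), Neat1 (26.4, 17.4 and 22.9 CPM) and Xist (808, 1082 and 852 CPM), also nuclear, did not have that order. Cytosolic ribosomal proteins, also short genes, had medians of 0.19 and 0.10 over sIL-2. The part of Malat1 in the members' ratios was not tested.

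Within each library, nuclear-encoded members were higher in cycling than in non-cycling cells. Cells were called cycling at 4 or more UMIs of 36 cell cycle genes after thinning each cell to 2000 UMIs, and non-cycling at 0 or 1. The cycling cells were 16.8%, 29.6% and 39.0% of the cells with at least 2000 UMIs. Members made up 1.92%, 2.09% and 2.19% of the UMIs of cycling cells against 1.61%, 1.80% and 1.88% in non-cycling cells. The log2 ratio of cycling over non-cycling was 0.26 (0.25 to 0.26) with sIL-2, 0.21 (0.21 to 0.22) with Trikine and 0.22 (0.22 to 0.23) with the combination. In all 3 libraries 75 of 86 were higher in cycling cells, against 41.6% of all genes, and 6 were lower, against 39.0% of all genes. Of 13 mt- genes, 11 were higher and 2 lower in all 3 libraries, read against the same shares. Their summed ratios were 0.16, 0.21 and 0.08.

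Cycling cells also held more UMIs, at medians of 19680 to 27152 against 9226.5 to 11876 in non-cycling cells. Between 5000 and 10000 UMIs the ratio was 0.01 (-0.03 to 0.04) with sIL-2, 0.09 with Trikine and 0.07 with the combination, between 10000 and 20000 UMIs it was 0.12, 0.12 and 0.15, and above 20000 UMIs 0.19, 0.15 and 0.13. With depth held within these limits the ratio was thus smaller in every library, and in the shallowest of these bins the sIL-2 interval included 0. That bin held 70 cycling cells with sIL-2, and the interval leaves out the spread between cells. These bins were chosen after the data were seen. Summed mt- genes gave 0.52, 0.47 and 0.70 in the shallowest of them. In the next bin they gave 0.10, 0.15 and 0.09, and above 20000 UMIs 0.13, 0.19 and 0.03. Between 8.26% and 11.3% of cells lay at the limit of 4 UMIs or 1 below it.

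**Figure D4:**
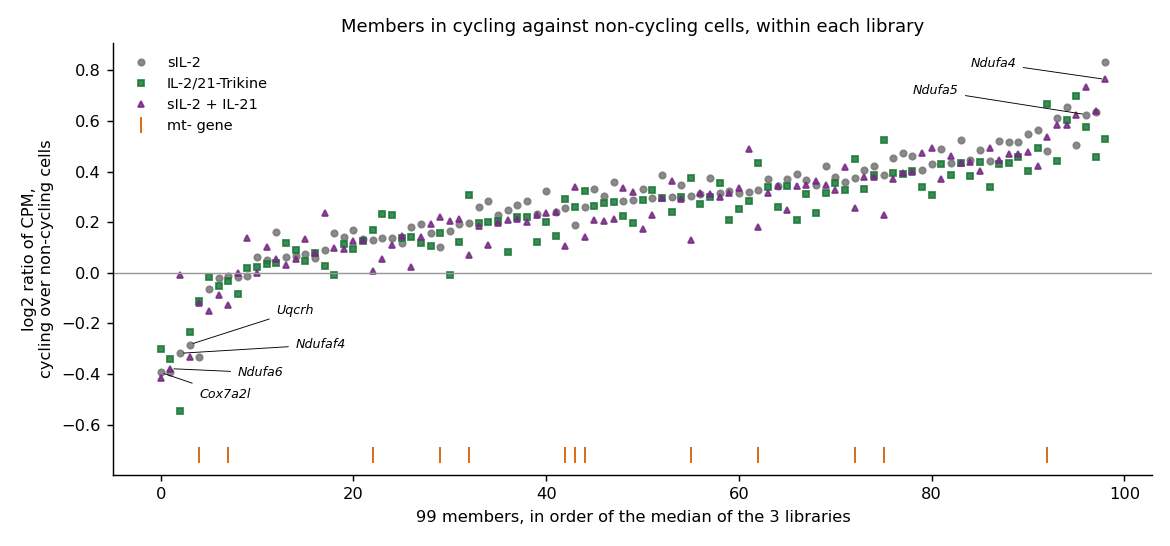
Log2 ratio of CPM in cycling over non-cycling cells of the same library (vertical axis) for the 99 members, ordered by the median of the 3 libraries (horizontal axis); each point is 1 library, and orange ticks mark mt- genes. Most points lie above 0, Ndufa4 reaches 0.83 with sIL-2, and Cox7a2l, Ndufa6 and Uqcrh lie at -0.23 or lower in every library.

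The highest and lowest ratios were found in a few named members. Ndufa4 was 374 CPM in cycling and 210 in non-cycling cells with sIL-2, 415 and 288 with Trikine, and 481 and 283 with the combination. Ndufab1, the mitochondrial acyl carrier protein that is also a complex I subunit, had log2 ratios of 0.63, 0.46 and 0.64. At the low end, Cox7a2l was 271 CPM in cycling and 357 in non-cycling cells with sIL-2, and its ratios were -0.39, -0.30 and -0.42. Uqcrh had -0.28, -0.23 and -0.33 and Ndufa6 had -0.39, -0.34 and -0.38. Ndufaf4 was lower as well at -0.32, -0.55 and -0.01, near 0 with the combination. These genes are singled out here after their values were seen.

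The share of cycling cells differed between libraries in the members' order, so the libraries were also compared within each class. In non-cycling cells the nuclear-encoded members gave a log2 ratio of 0.16 (0.16 to 0.17) for Trikine over sIL-2, 0.22 (0.22 to 0.23) for the combination over sIL-2 and -0.06 (-0.06 to -0.06) for Trikine over the combination. In cycling cells the values were 0.12, 0.19 and -0.07. Non-cycling cells between 10000 and 20000 UMIs gave 0.23, 0.25 and -0.02. The ratios over sIL-2 thus had the same sign with cycle and depth held within these limits, and the ratio between the other libraries came down to near 0 in that bin but was -0.09 in non-cycling cells above 20000 UMIs. Summed mt- genes gave -0.01 in non-cycling cells for Trikine over sIL-2. That ratio was 0.07 in all kept cells and 0.04 in those with at least 2000 UMIs, from which the classes were drawn.

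Other cell states were compared in the same way. Cells rich in granzymes C to G (at least 3 UMIs after thinning) had more nuclear-encoded members than the other cells of their library, with log2 ratios of 0.17, 0.11 and 0.13 in the order sIL-2, Trikine and the combination. In all 3 libraries 68 of 86 were higher, against 33.3% of all genes, among them Cox5a (0.37, 0.32 and 0.33) and Ndufa2 (0.40, 0.33 and 0.34), while Ndufaf4 was lower (-0.69, -0.54 and -0.29). These cells numbered 1881, 2629 and 5055, and were deeper than their libraries at medians of 17638 to 22033 UMIs. Cells with interferon-stimulated genes (at least 3 UMIs) had fewer members, at -0.15, -0.14 and -0.12, and 74 of 86 were lower in all 3 libraries, against 40.5% of all genes. These interferon cells were shallower than their libraries, at medians of 10222, 8545.5 and 9230 UMIs, and the part of depth was not tested.

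Cells with a UMI of Tcf7, the transcription factor of stem-like T cells, had fewer nuclear-encoded members and slightly more mt- UMIs than other cells. The nuclear ratios were -0.13, -0.11 and -0.16 and the mt- ratios 0.04, 0.07 and 0.04. Tcf7 cells were shallower, at medians of 9829, 9269 and 8080 UMIs against 13358, 11600 and 14556 in all cells with at least 2000 UMIs. Over kept cells between 5000 and 10000 UMIs the nuclear share was 1.44%, 1.69% and 1.72%. Between 10000 and 20000 UMIs it was 1.62%, 1.96% and 2.00%. The part of depth in the Tcf7 ratios was not tested. In all 3 libraries 72 of 86 nuclear-encoded members were lower in Tcf7 cells, against 33.0% of all genes. Of 13 mt- genes, 10 were higher, against 39.7% of all genes. Cox7a2l was again on the other side at 0.21, 0.18 and 0.35, with Uqcrh at 0.10, 0.07 and 0.26. Cells with hypoxia genes (at least 2 UMIs) were lower in both genomes, at -0.05, -0.06 and -0.03 for nuclear-encoded and -0.06, -0.05 and -0.06 for mt- genes, and 59 of 86 were lower in all 3 libraries, against 35.6% of all genes. Free RNA in the droplets reaches such per-cell calls, and its part was not tested.

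**Figure D5:**
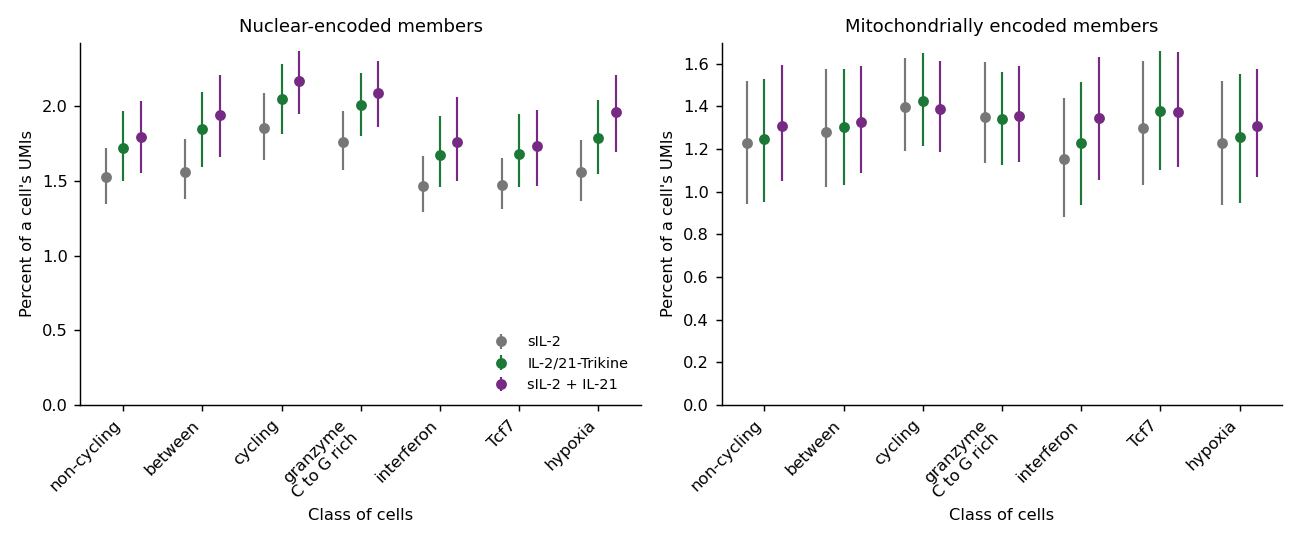
Percent of a cell's UMIs (vertical axis, from 0) from nuclear-encoded (left) and mitochondrially encoded members (right) by class of cells (horizontal axis) in the 3 libraries; points are medians over cells and bars are quartiles. In each class the nuclear share is lowest with sIL-2 and highest with the combination, as in cycling cells with medians of 1.86%, 2.05% and 2.17%, while the mt- medians of all classes lie between 1.15% and 1.42%.

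The order of the libraries held for the nuclear-encoded sum in each of the 7 classes plotted, but not in shallow cells. Between 2000 and 5000 UMIs, Trikine over the combination was 0.07 (0.04 to 0.09), and between 500 and 2000 UMIs 0.50 (0.44 to 0.56). Across the plotted classes Trikine over sIL-2 ran from 0.12 in cycling cells to 0.21, and the combination over sIL-2 from 0.19 in cycling to 0.30 in interferon cells. In the plotted classes the values for Trikine over the combination were between -0.11 in hypoxia cells and -0.04 (-0.05 to -0.03) in Tcf7 cells. In Tcf7 cells the 2 libraries were closest, and 36 of 86 members were above 0.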

How the data were processed

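Per the labels and methods, the authors made 3′ single-cell libraries and deposited 1 table of raw UMI counts per gene and cell for each of the 3 libraries, produced with Cell Ranger with intronic reads included. The labels name mm10 and the methods GRCm39 as the reference, and no coordinate of the files was used. Of 31026 deposited cells, 30857 with 500 to 120000 UMIs and at most 20% mitochondrial UMIs were kept. No doublet caller was run. Counts were summed over kept cells and scaled to CPM. Log2 ratios carry an exact binomial 95% interval, which covers counting error only since 1 library stood for each group, and no test between groups was made. Per-cell classes were set after thinning each cell to 2000 UMIs, with cells below that left out (266, 1775 and 364). Gene spans came from GENCODE vM21 and promoters from RefSeq (GRCm38.p6). By rule, the genes named were all mt- and complex II members, the most abundant subunit of each complex, the 5 highest and 5 lowest ratios of each pair, the paralog sets, the genes nearest the minimum and the ends of other lists. Other named genes stand for a role and were chosen after their values were seen. The members and lists were chosen with earlier results of these data known. The ratio script was tested on simulated data. Python 3.11.15, numpy 2.4.6, scipy 1.17.1 and, for TMM factors, edgeR 4.0.16 were used. Alternatives changed cell limits, thinning, weighting, scaling, the minimum and the cells included.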

Additional observations from a re-analysis of the deposited data

How the results depend on the processing

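The summed nuclear-encoded members kept the order sIL-2, Trikine, combination under every alternative run. In the order Trikine over sIL-2, Trikine over combination and combination over sIL-2, their log2 ratios were 0.186, -0.095 and 0.282, and those of the mt- genes 0.069, -0.006 and 0.075. The nuclear-encoded values were 0.184, -0.095 and 0.279 with all deposited cells, 0.19, -0.092 and 0.282 under stricter limits on depth and on mitochondrial content, and 0.191, -0.09 and 0.281 with at least 2000 UMIs. They were 0.207, -0.079 and 0.286 after thinning, 0.156, -0.126 and 0.282 with each cell weighted equally, and 0.187, -0.095 and 0.283 over non-mitochondrial UMIs. They were 0.286, -0.096 and 0.382 with TMM factors, 0.266, -0.098 and 0.364 with median-of-ratios factors, 0.201, -0.095 and 0.295 without cells with 2 or more myeloid or melanoma markers, 0.164, -0.06 and 0.224 in non-cycling cells, and 0.201, -0.101 and 0.302 without the 5% of cells with most UMIs. The mt- values, in the same order of settings, were 0.065, -0.01 and 0.075, then 0.036, -0.027 and 0.063, then 0.039, -0.03 and 0.069, then 0.055, -0.075 and 0.13, then 0.304, 0.063 and 0.242, then 0.07, -0.006 and 0.076, then 0.17, -0.006 and 0.175, then 0.149, -0.009 and 0.158, then 0.075, -0.01 and 0.086, then -0.012, -0.095 and 0.083, and 0.078, -0.008 and 0.086. The mt- ratio thus changed sign for Trikine over the combination with equal weights and for Trikine over sIL-2 in non-cycling cells, and the cause was not tested. TMM and median-of-ratios factors moved the median of all genes over sIL-2 from -0.08 and -0.07 to 0.02 and 0.03, and to 0.00 and 0.01.

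Of members counted over sIL-2, 50 were higher with Trikine under TMM factors, against 19.5% of all genes. At a log2 ratio of 0.5, 4 were higher with Trikine and 10 with the combination. With a minimum of 1 CPM, 1 was lower with Trikine than with sIL-2 and 8 lower than with the combination. Against the combination, 2 were higher with Trikine after thinning, in non-cycling cells and with equal weights, against 9.74%, 12.5% and 15.0% of all genes. With equal weights 8 were lower, and 9 without the 5% of cells with most UMIs, against 11.2% and 12.2% of all genes. At 0.5, 0 were higher and 0 lower. The share of all genes is not given at 0.5 or at 1 CPM, so those member counts cannot be set against it. No paired analysis was possible because each group had 1 library, and no replicate could be left out. The spread between mice, doublets and free RNA were not measured, and genes near 10 CPM have the widest counting intervals.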

Other observations

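Cells with 500 to 2000 UMIs held few nuclear-encoded and many mt- transcripts. Nuclear-encoded members made up 0.581% of their UMIs with sIL-2, 1.03% with Trikine and 0.727% with the combination, and mt- genes 5.17%, 5.11% and 8.77%. These cells numbered 266, 1775 and 364. Between cells the spread was wide with Trikine, where the median mt- share was 1.45% and the upper quartile 8.45%.

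Genes for coenzyme Q synthesis, which makes the carrier between complexes I and II and complex III, summed to 232, 231 and 226 CPM. Of 9, 2 were higher and 1 lower with Trikine than with sIL-2, and 2 higher and 2 lower with the combination. For all lists here, 11.2% of all genes were higher and 23.0% lower with Trikine, and 16.1% higher and 28.9% lower with the combination. Mitochondrial transcription and genome upkeep genes summed to 368, 400 and 384 CPM, and 3 of 11 were higher with Trikine than with sIL-2 and 0 lower, and 1 higher and 1 lower with the combination. These sums include Mrps12, also counted above as a mitochondrial ribosomal protein, at 62.1, 78.2 and 81.3 CPM. Mrps12 was 1 of the 3 higher with Trikine and the 1 higher with the combination. The 7 mitochondrial antioxidant genes summed to 706, 733 and 775 CPM, with 0 higher and 1 lower with Trikine and 1 higher and 0 lower with the combination. Of 37 assembly factors outside the symbol rule 9 were higher and 1 lower with Trikine than with sIL-2, and 10 higher and 1 lower with the combination.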
